A study of Homo sapiens with 28 samples.

Results

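SNX631, a small-molecule inhibitor of the Mediator kinases CDK8 and CDK19, was given for 72 h to androgen-deprived LNCaP cells, and 8 RNA-seq libraries measured the transcripts: 4 from cells that received 500 nM SNX631 and 4 from cells that received the vehicle, 0.1% DMSO. They were chosen by their treatment and time labels, and are 8 of the 28 libraries of the series. LNCaP is an androgen-responsive human prostate cancer cell line, labelled wild type, and all values come from this single line. Every culture, control included, was kept for 72 h in medium with charcoal-stripped serum, from which steroid hormones have been removed, before treatment began. The same 72 h experiment held 4 libraries with 1 nM R1881, a synthetic androgen, and 4 with R1881 plus SNX631. A separate 24 h experiment, with 3 libraries per group, used vehicle, the inhibitor Senexin B at 1 µM by the labels, 0.1 nM R1881 and both agents. The study's text gives another dose of Senexin B than the labels, and the difference could not be settled here. The study's methods call its RNA-seq replicates biological, while the labels do not say whether libraries of a group came from separate cultures on separate days. The p-values measure the spread between these libraries.

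CDK8 and CDK19 are closely related cyclin-dependent kinases, and a cell can use either as the enzyme of Mediator's detachable kinase module. A cyclin, cyclin C, activates the kinase, and large proteins of the MED12 and MED13 families hold it and tie it to the rest of the complex. The module docks reversibly on Mediator, the coactivator complex that links transcription factors to RNA polymerase II, and its kinase activity can raise or lower transcription depending on the gene. In prostate cells androgen drives KLK3 (prostate-specific antigen) and represses other genes. Without androgen, cells of this line divide slowly, and the comparison asks which transcripts depend on the Mediator kinases in that state.

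The 8 libraries held between 10971458 and 12741548 assigned counts each, and the 10 most abundant genes took 4.46% to 4.72% of them. The first principal component of log2 CPM (counts scaled to 1000000 per library) over 14929 genes carried 52.3% of the variance and separated the groups, from -19 to -16.1 for vehicle and from 15.8 to 19.5 for SNX631. On the second component, with 10.9%, SNX631 replicates 1 and 2 lay at 10.8 and 8.64 and replicates 3 and 4 at -6.89 and -14.8. Luminal prostate markers carried the identity of the cells: 20 of 24 were at 1 CPM or more and their sum was 7567 to 7622 CPM with vehicle and 6758 to 6909.5 CPM with SNX631. NPY and MSMB, which luminal cells can secrete, had at most 3 counts in any of the libraries. Markers of other cell types were scarce in both groups, with sums of 45.0 to 50.2 and 44.7 to 49.6 CPM for 14 basal genes, 93.2 to 100.2 and 104 to 111 CPM for 24 neuroendocrine genes, and 38.3 to 42.3 and 35.2 to 37.7 CPM for 21 stromal, endothelial and immune genes. Of these, 9, 15 and 13 genes had at most 3 counts in any library. A bulk library does not tell fewer cells of a type from less RNA per cell.

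No subunit of the kinase module changed past the limits used here, an edgeR false discovery rate (FDR) under 0.01 and a fold change over 1.5. CDK19 measured 275, 276, 271 and 273 CPM with vehicle and 317, 307, 319 and 304 CPM with SNX631, a log2 change of 0.19 ± 0.027 (SE, edgeR FDR 4.6e-07). Its groups did not overlap, but the difference was well under the fold limit. CDK8 went from a mean of 45.2 to 50.2 CPM and CCNC, which encodes cyclin C, from 65.1 to 59.6 CPM, with overlapping groups. MED12, MED12L, MED13 and MED13L had log2 differences between -0.13 and 0.06. At an unadjusted edgeR p under 0.05 the 7 subunits gave 2 higher and 3 lower, where 23% and 21.6% of all genes tested passed that limit, and DESeq2 called 0. The inhibitor acts on the proteins' activity, which RNA counts do not measure. KLK3 was near the detection limit without androgen, at 1.22, 1.6, 1.54 and 1.4 CPM with vehicle and 0.7, 1.69, 1.36 and 1.79 CPM with SNX631, and the overlapping groups gave no call (edgeR FDR 0.901).

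SNX631 changed 766 of the 16074 genes tested (4.77%), of which 454 were higher (2.82%) and 312 lower (1.94%). The changes were moderate in size: the median log2 change was 0.86 among the higher genes and -0.87 among the lower ones, 147 and 113 genes passed 2-fold, and 5 and 8 passed 4-fold. Replicates were tight. The spread beyond counting error, which edgeR calls the biological coefficient of variation, was 2.38% over the 16 libraries of the 72 h experiment. Since the labels do not give separate cultures, it may not include variation between cultures. With no fold limit 4321 genes (26.9%) passed the FDR limit, 2309 higher (14.4%) and 2012 lower (12.5%). The 4 libraries of one group all lay above the 4 of the other in CPM for 5307 genes (33%), among them 444 of the 454 called higher and 266 of the 312 called lower. Protein-coding genes made up 405 of the higher and 231 of the lower calls. Long non-coding RNAs leaned the other way, with 25 higher and 59 lower of 1849 tested. The median over all genes tested was 0.0019 on the log2 scale, so a list's median can be read against a value close to 0. Counts of called members in the lists below are likewise to be read against 2.82% higher and 1.94% lower.

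**Figure D1:**
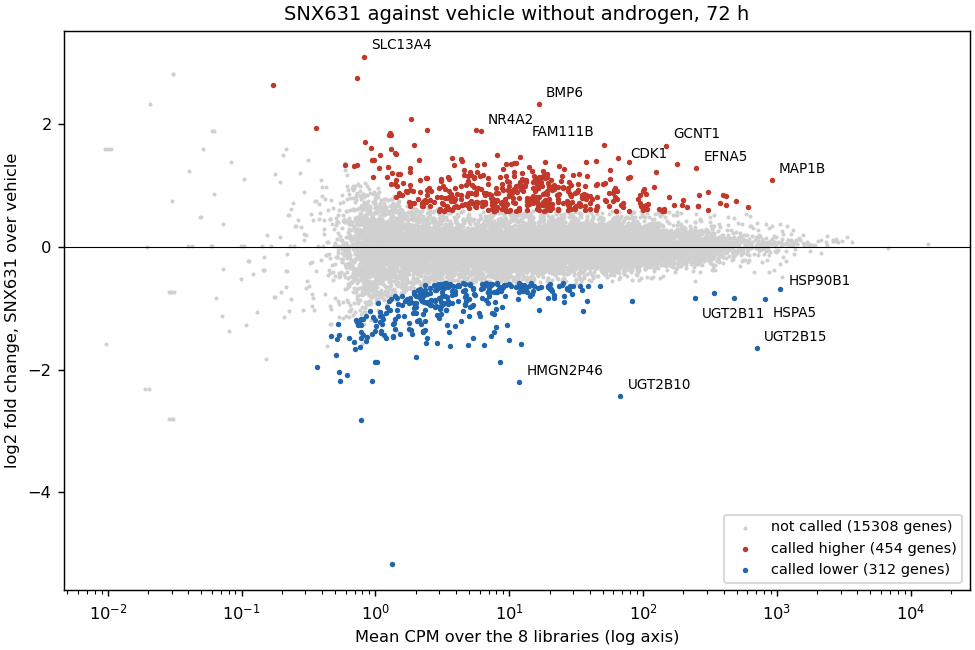
Log2 fold change of SNX631 over vehicle at 72 h without R1881 (vertical axis) against the mean CPM of each gene over the 8 libraries on a log axis (horizontal), 1 point per gene tested, with called genes coloured. The 454 higher and 312 lower genes spread over the whole range of levels, and UGT2B10 and UGT2B15 stand far below the other abundant genes.

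Genes of the cell division cycle gave the highest shares of increases among the gene lists. Of 68 genes of mitosis and the spindle, 60 were called higher and 0 lower, with a median log2 change of 0.96, and the remaining 8 were also above vehicle at an edgeR FDR under 0.01 but below the fold limit. Of 58 genes of DNA replication and nucleotide synthesis, 38 were higher and 0 lower, with a median of 0.72, and 57 passed the FDR limit alone. Over all genes tested, 14.4% were higher at that FDR limit. DESeq2 gave the same counts of 60 and 38. In 67 of the 68 mitotic genes and 57 of the 58 replication genes every SNX631 library lay above every vehicle library. That held for 17.6% of all genes tested.

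CDK1, the kinase that drives entry into mitosis (ENSG00000170312.17, chr10:60778331-60794852 in GRCh38), measured 96.9, 103, 100.5 and 102 CPM in the vehicle libraries and 253, 266, 259.9 and 253 CPM in the SNX631 libraries. The groups lay far apart, each within a narrow range, and the gene was 2.57-fold higher (log2 1.36 ± 0.033, SE, edgeR FDR 7.24e-29). SKA1, a part of the complex that holds kinetochores on spindle microtubules, had 2.09, 2.06, 2.83 and 2.5 CPM with vehicle and 5.86, 7.3, 7.2 and 5.11 CPM with SNX631. KIF15, a spindle motor, went from 5.4, 5.42, 5.23 and 5.31 CPM to 15.5, 14.1, 13 and 11.8 CPM. Neither gene had overlapping groups, and their log2 changes were 1.43 and 1.35 (edgeR FDR 1.27e-10 and 5.57e-13). At the lower end of the mitotic list lay CKAP2, at 0.18, and BUB3, a spindle checkpoint protein, at 0.28.

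Among replication genes MCM10, which helps to activate the replicative helicase, rose from 8.61, 9.54, 11.9 and 10.9 CPM to 27.6, 28.1, 28.4 and 23.2 CPM (log2 1.39 ± 0.083, SE, edgeR FDR 4.97e-17). SNX631 replicate 4 stood below the other SNX631 libraries but above every vehicle library. CDC45, the helicase subunit that marks active forks, rose from 5.4, 6.26, 5.41 and 6.09 CPM to 13.6, 15.5, 14.3 and 16 CPM (log2 1.35 ± 0.097, SE, edgeR FDR 9.26e-15). E2F7, a repressor within the E2F family of S-phase regulators, went from a mean of 3.24 to 8.26 CPM (log2 1.33 ± 0.14, SE, edgeR FDR 2.08e-10). The smallest changes were those of CCNE1, cyclin E1, at 0.20 with an edgeR FDR of 0.0259, and POLD2, a DNA polymerase delta subunit, at 0.22. Outside both lists FAM111B, a protease with cell-cycle-dependent transcripts, was among the 12 largest called increases of genes with a symbol and at least 1 CPM, rising from 22.4, 23.6, 27.6 and 23.3 CPM to 80.7, 79.6, 73.5 and 74.4 CPM, 3.18-fold.

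Homologous recombination and Fanconi anaemia genes, a list of 44 written after the values were seen, gave 21 higher and 0 lower with a median of 0.54. Over all genes tested, 2.82% were higher and 1.94% lower. BRIP1, a helicase of that pathway, rose from 4.35, 6.49, 7.12 and 6.01 CPM to 14, 17.6, 16.2 and 14.4 CPM (log2 1.38 ± 0.11, SE, edgeR FDR 1.94e-13). Its groups did not overlap. The genes that govern the G1 phase moved little beside these. Of 19 G1 cyclins, their kinases and CDK inhibitors, 1 was higher and 0 were lower, with a median of 0.06. The called member was RBL1, a pocket protein related to the retinoblastoma protein, at 14.6, 14.3, 16.5 and 14.4 CPM with vehicle and 23.3, 22.4, 22.8 and 21.8 CPM with SNX631. Its groups did not overlap, but its log2 change of 0.60 sat just above the fold limit and fell below it with library totals in place of TMM scaling (0.57), and without vehicle replicate 1 (0.584), 2 or 4 or SNX631 replicate 1. CDKN1A, which encodes the CDK inhibitor p21, went from 84.8 to 69.8 CPM and CCND1, cyclin D1, from 195 to 177 CPM, both below the fold limit.

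The promoters of CDK1 and CDC45 are shown because they hold the elements known to time mitotic and replication genes. Each is the 250 bases before a RefSeq transcription start in GRCh38.p14, on the gene's strand, at chr10:60778081-60778330 for CDK1 and chr22:19479670-19479919 for CDC45. Capitals mark matches on either strand to TTTGAA, the cell cycle homology region (CHR), to CCAAT, and to TTTCGCG or TTTGGCG, an E2F site. RefSeq lists 2 starts for CDK1 and 3 for CDC45.
CDK1: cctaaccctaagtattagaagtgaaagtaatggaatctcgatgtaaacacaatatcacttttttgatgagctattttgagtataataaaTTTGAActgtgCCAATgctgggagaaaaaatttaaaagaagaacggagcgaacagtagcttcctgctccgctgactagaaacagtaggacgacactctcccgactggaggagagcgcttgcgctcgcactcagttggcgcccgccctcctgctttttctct
CDC45: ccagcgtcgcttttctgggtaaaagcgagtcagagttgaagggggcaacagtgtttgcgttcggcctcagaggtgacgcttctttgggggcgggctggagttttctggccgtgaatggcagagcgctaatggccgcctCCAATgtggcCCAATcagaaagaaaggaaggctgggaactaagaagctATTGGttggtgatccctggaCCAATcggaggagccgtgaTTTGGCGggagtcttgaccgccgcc
The printed CDK1 window holds 1 CHR match, 161 bases before the start, and 1 CCAAT match, 150 bases before it. The E2F letters are absent from it but present in the window of the other CDK1 start. CDC45 holds an E2F match 25 bases before the start and 4 CCAAT matches. Over the windows of the mitotic list, 32 of 70 (45.7%) held TTTGAA, against 8.84% of the windows of all genes tested and 13.3% of all 35116 windows. The E2F letters were in 17 of 64 windows of the replication list (26.6%), against 3.99% of those of genes tested and 2.65% of all. In the other list each motif was scarce, with TTTGAA in 3.12% of the replication windows and the E2F letters in 5.71% of the mitotic ones. CCAAT was in 65.7% and 56.2% of them, against 33.3%. Windows of several starts of a gene can overlap, and a match describes letters, not a bound site.

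The UGT2 family, enzymes that attach glucuronic acid to steroids and other compounds, held the deepest falls among abundant genes. Some of its members inactivate androgens in this way. Of 15 genes of the family in the table, 11 passed the filter on low counts, of which 6 were lower and 1 higher, with a median log2 change of -0.76. The family's genes lie side by side on chromosome 4 and are close copies of one another, so that reads shared by several copies make each single value uncertain. DESeq2 called the same numbers, 6 lower and 1 higher, and each replicate left out in turn kept 6 lower.

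UGT2B10 (ENSG00000109181.12, chr4:68815993-68831196) measured 117, 114, 110.4 and 114 CPM with vehicle and 21.3, 21.8, 21 and 20.4 CPM with SNX631. The gap between the groups was many times the range within either, and the gene was 5.39-fold lower (log2 -2.43 ± 0.049, SE, edgeR FDR 1.85e-32). UGT2B15, an enzyme for dihydrotestosterone and its metabolites (chr4:68646630-68670628), fell from 1059.5, 1077, 1059.5 and 1081 CPM to 362, 343, 339 and 324 CPM, 3.13-fold (log2 -1.64 ± 0.027, SE, edgeR FDR 8.15e-34). UGT2B28, active on androgens as well, fell from 49.6, 49.5, 47.9 and 44.6 CPM to 25.2, 23.1, 23.6 and 20.4 CPM. None of these groups overlapped. UGT2B11 fell from 609, 621, 609 and 616 CPM to 345, 359, 345 and 332 CPM (log2 -0.83). UGT2B17, which also acts on androgens, fell from 423, 421, 429 and 428 CPM to 256, 256, 255 and 239 CPM (log2 -0.76). The pseudogene UGT2B27P went from a mean of 5.6 to 2.3 CPM.

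UGT2B7, which acts on a wide range of drugs and steroids, went the other way at a far lower level, from 3.39, 3.28, 3.0 and 2.97 CPM to 7.08, 7.15, 6.32 and 6.13 CPM (log2 1.08 ± 0.14, SE, edgeR FDR 7.12e-08). All its SNX631 libraries lay above all its vehicle libraries. UGT2A3 measured 0.85 and 1.47 CPM and UGT2B4 6.23 and 7.15 CPM in the vehicle and SNX631 means, and neither was called. Other steroid genes did not shift as a list, with a median log2 change of -0.06 and a range from -0.85 to 1.11. Of 18 in steroid synthesis and metabolism, 0 were called higher and 1 lower, against 2.82% and 1.94% over all genes tested. That gene was SULT2B1, which sulfates sterols, at 5.74, 6.11, 6.61 and 6.79 CPM with vehicle and 3.59, 4.07, 2.8 and 3.49 CPM with SNX631 (log2 -0.85).

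The upstream sequences of UGT2B10, UGT2B15 and UGT2B7 are printed to show how close the copies are. They are the 250 bases before the RefSeq start in GRCh38.p14 on the gene's strand, at chr4:68815744-68815993, chr4:68670653-68670902 and chr4:69096224-69096473. In the first and the second, capitals mark runs of 12 or more bases that they share, and in the third, a run of that length shared with UGT2B10.
UGT2B10: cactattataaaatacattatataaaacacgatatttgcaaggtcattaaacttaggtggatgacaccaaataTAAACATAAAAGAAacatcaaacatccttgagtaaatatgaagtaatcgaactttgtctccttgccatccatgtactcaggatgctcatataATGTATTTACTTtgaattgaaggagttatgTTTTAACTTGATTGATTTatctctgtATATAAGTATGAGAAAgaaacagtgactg
UGT2B15: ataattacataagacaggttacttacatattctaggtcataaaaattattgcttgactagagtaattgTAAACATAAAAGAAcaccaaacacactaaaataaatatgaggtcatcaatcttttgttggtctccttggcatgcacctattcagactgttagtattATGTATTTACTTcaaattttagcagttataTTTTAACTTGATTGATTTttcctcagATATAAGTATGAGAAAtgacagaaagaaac
UGT2B7: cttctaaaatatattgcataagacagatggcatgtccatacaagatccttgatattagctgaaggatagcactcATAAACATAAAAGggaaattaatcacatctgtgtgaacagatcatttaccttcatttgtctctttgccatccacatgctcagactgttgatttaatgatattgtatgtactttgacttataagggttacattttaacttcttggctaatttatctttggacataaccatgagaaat
UGT2B10 and UGT2B15, which fell, shared 60 bases in such runs, and UGT2B7, which rose, shared 13 with UGT2B10. Shared letters are a description of the sequence and were not tested against the response.

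Chaperones of the endoplasmic reticulum (ER) were lower from a high level. Of 28 genes of the unfolded protein response and protein folding in that compartment, 2 were called lower and 0 higher, with a median of -0.21. At an edgeR FDR under 0.01 alone 18 were lower and 1 higher, where 12.5% and 14.4% of all genes tested were. HSPA5, the chaperone BiP (ENSG00000044574.9, chr9:125234853-125241330), measured 1025, 1069.6, 1059 and 1049.9 CPM with vehicle and 556, 589, 579.6 and 597 CPM with SNX631. The groups were well apart, and the gene was 1.81-fold lower (log2 -0.86 ± 0.021, SE, edgeR FDR 2.29e-28). HSP90B1, its partner GRP94, went from 1239, 1323, 1306 and 1299.9 CPM to 783, 798, 809 and 821 CPM (log2 -0.69 ± 0.021, SE, edgeR FDR 3.55e-25). Its transcript lies over 3 other annotated genes, so some reads could belong to those. Below the fold limit, CALR, the lectin chaperone calreticulin, went from 1266 to 905 CPM (log2 -0.48) and PDIA3, a disulfide isomerase, from 763 to 577 CPM (log2 -0.40). XBP1, a transcription factor that induces these genes, was the 1 member higher at that FDR limit, at 158 and 201 CPM (log2 0.35, edgeR FDR 2.36e-12), and DDIT3, the stress-induced factor CHOP, measured 13.6 and 13.4 CPM.

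Both promoters hold the ER stress element, CCAAT and CCACG with 9 bases between them, which contains a CCAAT motif by its construction and is printed in capitals. The windows are the 250 bases before the RefSeq start in GRCh38.p14 on the gene's strand, at chr9:125241344-125241593 and chr12:103930160-103930409.
HSPA5: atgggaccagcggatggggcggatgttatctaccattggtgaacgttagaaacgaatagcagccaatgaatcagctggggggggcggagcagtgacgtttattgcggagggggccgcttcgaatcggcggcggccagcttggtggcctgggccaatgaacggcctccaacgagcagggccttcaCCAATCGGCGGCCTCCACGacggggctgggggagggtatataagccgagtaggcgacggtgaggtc
HSP90B1: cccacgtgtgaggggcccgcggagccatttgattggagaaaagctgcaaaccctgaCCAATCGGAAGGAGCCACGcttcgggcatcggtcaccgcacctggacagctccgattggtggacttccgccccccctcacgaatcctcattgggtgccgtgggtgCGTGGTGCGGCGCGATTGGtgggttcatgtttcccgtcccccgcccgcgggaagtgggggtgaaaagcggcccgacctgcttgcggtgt
HSPA5 held 1 match, 66 bases before the start, and HSP90B1 held 2, at 194 and 89 bases, 1 of them on the other strand. Of the 36 windows of the list 8 held it (22.2%), those of CALR, CANX, CRELD2, HSP90B1, HSPA5, PDIA6 and XBP1, against 26 of all 35116 windows (0.074%). XBP1 holds the element and lay above vehicle, while the other genes of that set lay below it. Whether the element goes with the response was not tested.

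Interferon-response genes were also lower, from lower levels. Of 62 in the list 41 passed the filter on low counts, of which 9 were lower and 0 higher, with a median of -0.24. With no fold limit 17 were lower and 0 higher at an edgeR FDR under 0.01 (12.5% and 14.4% of all genes tested). At an unadjusted edgeR p under 0.05 there were 23 lower and 1 higher (21.6% and 23% of all genes tested), and DESeq2 called 8 lower. IFIT2, which binds foreign RNA, measured 4.0, 3.66, 3.95 and 3.28 CPM with vehicle and 1.4, 2.0, 1.92 and 2.13 CPM with SNX631 (log2 -0.99 ± 0.18, SE, edgeR FDR 1.63e-05). HERC6, an interferon-induced ubiquitin ligase, measured 7.22, 5.95, 6.69 and 7.18 CPM and 3.41, 2.92, 4.4 and 2.9 CPM (log2 -0.98 ± 0.15, SE, edgeR FDR 5.67e-07). Neither overlapped between the groups. IFI44 overlapped, since SNX631 replicate 3 had 2.32 CPM against a lowest vehicle value of 2.0, and it lost its call without SNX631 replicate 4 or vehicle replicate 2 (edgeR FDR 0.0104 and 0.0124). The more abundant members that fell were IFITM3, a restriction factor in endosomes, from 34.7 to 21.4 CPM, and PARP9, from 34.7 to 22.3 CPM. In all, the called genes were few in number and low in level, and all 9 were lost when the fold change itself was tested against 1.5.

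MHC class I antigen presentation gave 1 lower and 0 higher of 12, with a median of -0.15.  Over all genes tested, 1.94% were lower and 2.82% higher. The called gene was ERAP2, a peptide-trimming aminopeptidase, at 1.13, 1.14, 1.54 and 0.624 CPM with vehicle and 0.437, 0.461, 0.4 and 0.511 CPM with SNX631. It lost its call without vehicle replicate 3 or SNX631 replicate 3 (edgeR FDR 0.0221 and 0.011), and DESeq2 gave it no adjusted p. B2M, the light chain of the complexes that carry peptides to the surface, went from a mean of 90.9 to 78.5 CPM, below the fold limit. Of 11 H2B histone genes, a list written after the values were seen, 4 were lower and 0 higher, with a median of -0.30. H2BC21, whose transcripts can be polyadenylated outside S phase, fell from 111, 104, 104 and 109 CPM to 57.7, 58.3, 56.7 and 58.7 CPM (log2 -0.88 ± 0.04, SE, edgeR FDR 3.8e-20). The median of this list was opposite in sign to that of the replication genes. Not every member fell, since H2BC15 lay at 0.18 (edgeR FDR 0.184). No other histone family was listed, so the values do not describe histone genes as a whole. H2AZ1, a histone variant gene with cell-cycle-dependent transcripts, rose from 356, 369, 377 and 376 CPM to 602, 649.9, 611 and 618 CPM (log2 0.75 ± 0.025, SE, edgeR FDR 4.74e-24).

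**Figure D2:**
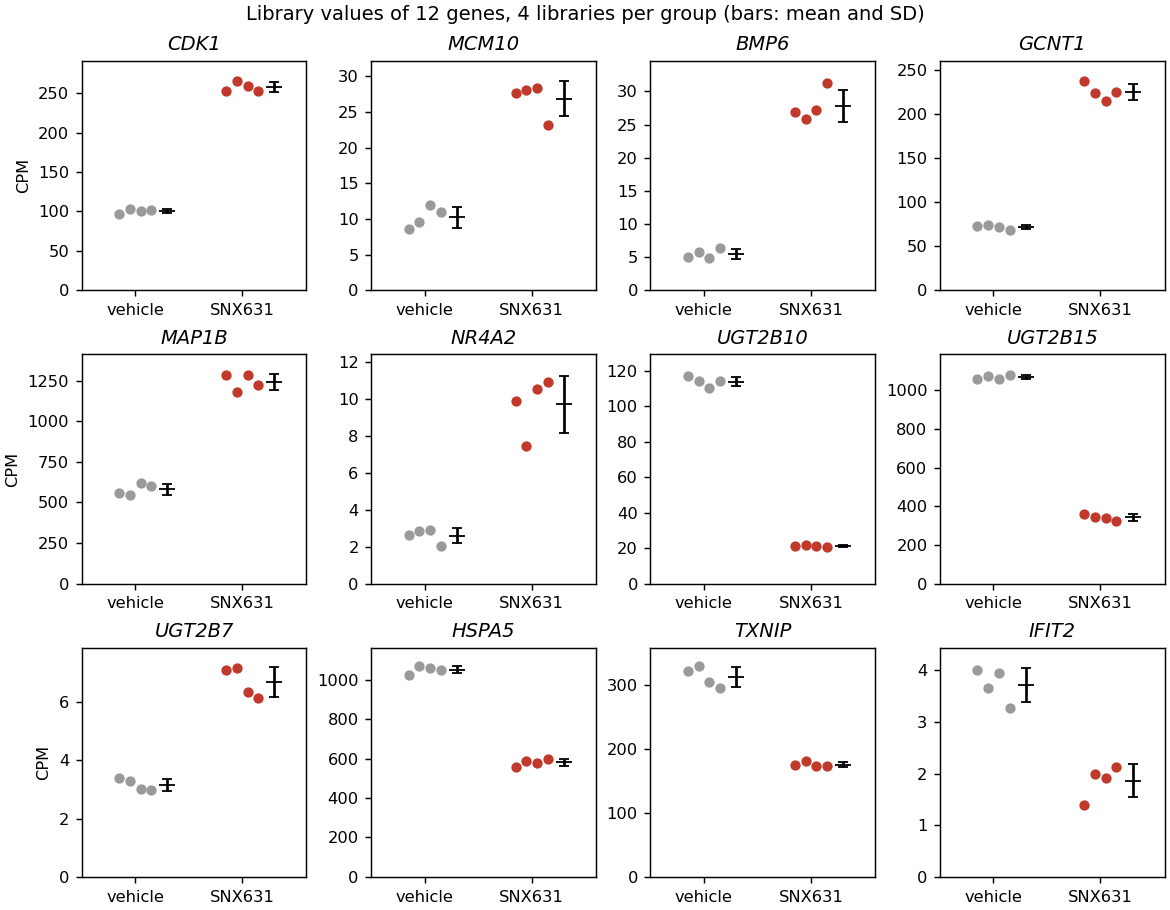
CPM of 12 genes in each library without R1881, with vehicle and SNX631 side by side and a separate linear axis for each gene; points are the 4 libraries of a group and bars mark the mean and SD. In all 12 genes the SNX631 points lie entirely above or entirely below the vehicle points, from CDK1 and BMP6 above to UGT2B10 and HSPA5 below.

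The 12 largest called increases of genes with a symbol were ranked by fold change. At least 1 CPM was required in the SNX631 mean only, so the choice itself favours genes that are low with vehicle. BMP6, a bone morphogenetic protein (ENSG00000153162.9, chr6:7726797-7881422), measured 4.96, 5.8, 4.81 and 6.4 CPM with vehicle and 26.9, 25.8, 27.2 and 31.3 CPM with SNX631, 5.02-fold higher (log2 2.33 ± 0.10, SE, edgeR FDR 7.07e-22). FUT9, a fucosyltransferase that makes the Lewis x antigen, went from 0.87, 0.611, 0.515 and 0.78 CPM to 2.54, 2.77, 3.12 and 3.49 CPM, 4.25-fold. PLA2G2A, a secreted phospholipase, went from 2.35, 1.83, 2.32 and 2.97 CPM to 8.83, 10.1, 8.8 and 7.92 CPM, 3.77-fold. The groups of all of them were fully separate. NR4A2, an orphan nuclear receptor of the immediate-early class, went from 2.61, 2.82, 2.92 and 2.03 CPM to 9.88, 7.46, 10.5 and 10.9 CPM, 3.71-fold. RXFP3, a receptor for relaxin-3, went from 0.87, 1.14, 1.03 and 1.01 CPM to 3.67, 3.07, 4.0 and 4.77 CPM, 3.76-fold. SLC13A4, a sulfate and anion transporter, had at most 3 counts in each vehicle library and 1.84, 0.999, 1.52 and 1.62 CPM with SNX631, which made it at least 6.09-fold higher against a floor of 3 counts per library. P2RY1, an ADP receptor, BASP1, a protein of growth cones, PREX2, a Rac exchange factor, STMN4, a stathmin, and TUBA3D, an alpha-tubulin, completed the 12 largest increases, with means of 1.29 to 2.07 CPM with SNX631.

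GCNT1 and MAP1B were among the abundant genes that rose. GCNT1, which builds core 2 branches on mucin-type glycans (ENSG00000187210.14, chr9:76419850-76651203), measured 72.4, 74.2, 71.8 and 67.9 CPM with vehicle and 237, 224, 215 and 225 CPM with SNX631, 3.14-fold higher (log2 1.65 ± 0.037, SE, edgeR FDR 3e-30). The gene overlaps PRUNE2 on the opposite strand. MAP1B, a microtubule-associated protein of neurites, measured 560, 545, 618 and 602 CPM and 1286, 1182, 1284 and 1220.2 CPM (log2 1.10 ± 0.044, SE, edgeR FDR 1.83e-21). Both had groups far apart. TARS1, the threonyl-tRNA synthetase, rose from 303, 311, 299 and 299 CPM to 551, 539.7, 536 and 523 CPM (log2 0.83 ± 0.023, SE, edgeR FDR 7.68e-27). BDP1, a subunit of the RNA polymerase III initiation factor, rose from a mean of 478 to 749 CPM (log2 0.65). AMACR, the racemase used as a prostate cancer marker, was the 1 luminal marker called, from 41.8, 42.4, 41.5 and 42.2 CPM to 85.0, 78.7, 81.3 and 74.3 CPM (log2 0.93 ± 0.045, SE, edgeR FDR 3.38e-19). It did not stand for its list. At an edgeR FDR under 0.01 alone, 3 of 22 luminal markers tested were higher and 11 lower, with a list median of -0.09. Over all genes tested, 14.4% were higher and 12.5% lower at that limit.

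Other genes that fell were in part non-coding and in part protein-coding. The largest fall of all, in a gene outside the naming rule that was chosen after its values were seen, was ENSG00000259354, an antisense-type transcript at chr15:45448427-45513767. It had 36, 30, 29 and 32 counts with vehicle and 1, 2, 0 and 0 counts with SNX631, at least 10.5-fold lower against a floor of 3 counts per library (edgeR FDR 3.04e-12). HMGN2P46, a transcribed pseudogene whose start overlaps the end of that transcript on the same strand, fell from 21.6, 17.8, 18.4 and 20.4 CPM to 4.37, 4.46, 4.16 and 3.92 CPM, 4.6-fold (log2 -2.20 ± 0.12, SE, edgeR FDR 8.01e-19). LINC00161 fell from 13.9, 14.7, 11.1 and 14.1 CPM to 3.93, 3.61, 3.36 and 3.83 CPM, 3.66-fold. All these groups were separate. HEPACAM, a cell adhesion protein, fell from 4.79, 4.96, 3.86 and 3.75 CPM to 1.05, 2.23, 1.2 and 1.28 CPM and CACNA1G, a T-type calcium channel, from a mean of 3.58 to 1.27 CPM. FGL1, LRRC37A11P, RASSF6 and TMCC3, with vehicle means of 1.04 to 1.27 CPM, also belonged to the 12 lowest, and LRRC37A11P lost its call without SNX631 replicate 2 (edgeR FDR 0.0121).

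RPL30-AS1 and MIR1282, which lie over the ribosomal protein gene RPL30 and over SERF2, complete the 12 lowest but split within their groups. RPL30-AS1 measured 6.53, 2.06, 10.6 and 2.73 CPM with vehicle and 0.175, 0.154, 2.48 and 4.26 CPM with SNX631, and MIR1282 measured 3.65, 2.37, 5.84 and 2.5 CPM and 0.0874, 0.154, 1.84 and 2.73 CPM. SNX631 replicates 3 and 4, which stood apart from replicates 1 and 2 on the second principal component, reached into the vehicle range in RPL30-AS1, as did replicate 4 in MIR1282. DESeq2 called neither (FDR 0.309 and 0.0917). Leaving out vehicle replicate 3 ended both calls (edgeR FDR 0.0584 and 0.0108), and leaving out vehicle replicate 1 or SNX631 replicate 1 or 2 ended that of RPL30-AS1 (edgeR FDR 0.0123, 0.0189 and 0.0237). Whether reads were counted by strand was not given, so reads of the overlapping genes cannot be told apart.

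TXNIP, the thioredoxin-interacting protein that restrains glucose uptake, fell from 322, 330.5, 305 and 296 CPM to 175, 182, 174 and 173 CPM (log2 -0.83 ± 0.032, SE, edgeR FDR 3.78e-22). It and EPAS1 were the 2 lower of 38 hypoxia and glycolysis genes, with 0 higher. EPAS1, the hypoxia factor HIF-2 alpha, measured 2.87, 3.59, 3.09 and 3.04 CPM and 2.8, 1.38, 2.16 and 1.62 CPM, and its call was lost without vehicle replicate 2 or SNX631 replicate 2 or 4 (edgeR FDR 0.0189, 0.0297 and 0.017) and under DESeq2. The glycolytic enzymes LDHA and HK2 stayed below the fold limit, at 360.3 and 411 CPM and at 47.5 and 63.2 CPM.

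Matrix and surface genes gave single strong changes in lists that did not shift as wholes. Of 33 extracellular matrix genes 4 were higher and 1 lower, with a median of -0.03, where 2.82% and 1.94% of all genes tested were. CCDC80, a secreted matrix protein, rose from 45.5, 44.4, 41.5 and 41.8 CPM to 117, 114, 113 and 107 CPM (log2 1.38 ± 0.044, SE, edgeR FDR 3.18e-25). COL5A2, a fibrillar collagen chain, rose from 21.2, 19.0, 22.6 and 20.4 CPM to 55.9, 59.0, 55.3 and 47.2 CPM (log2 1.39 ± 0.065, SE, edgeR FDR 4.61e-20). COL3A1, another fibrillar collagen chain and a stromal marker, rose from a mean of 4.24 to 11.9 CPM, whereas COL1A1 fell from 30.0 to 19.6 CPM (log2 -0.62) and came out at -0.58, inside the fold limit, without SNX631 replicate 3. LAMA1, a laminin chain at 0.391 and 0.985 CPM, was called with overlapping groups and lost its call in 6 of the 8 fits with 1 library left out. COL4A2, a basement membrane collagen chain, fell from 2.08 to 1.09 CPM and lost its call without vehicle replicate 2 (edgeR FDR 0.0131).

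Of 42 semaphorins, plexins and other guidance genes, 2 were higher and 1 lower, where 2.82% and 1.94% of all genes tested were. EFNA5, an ephrin that guides axons through Eph receptors, rose from 144, 146, 146 and 143 CPM to 349, 359.9, 344 and 355 CPM (log2 1.28 ± 0.025, SE, edgeR FDR 7.37e-32), with widely separate groups. The other calls were weak: PLXNA2 went from 1.69 to 2.79 CPM with overlapping groups and EPHB6 from 1.12 to 0.435 CPM. PLXNA2 was lost with library totals, under DESeq2 (adjusted p 0.0231) and in 6 of the 8 fits with 1 library left out, and EPHB6 without vehicle replicate 2 or 4 or SNX631 replicate 2, with edgeR FDR values from 0.0106 to 0.0325. Of 27 growth factor receptors and IGF axis genes, 2 were higher and 1 lower. MET, the receptor for hepatocyte growth factor, rose from 4.09, 3.43, 2.75 and 3.51 CPM to 7.96, 7.46, 6.88 and 7.75 CPM (log2 1.12 ± 0.13, SE, edgeR FDR 7.03e-09), and IGFBP5, which binds IGFs, from 2.07 to 3.45 CPM. IGFBP5 lost its call without vehicle replicate 4 (edgeR FDR 0.0124) and under DESeq2 (adjusted p 0.0121). PDGFRB, at 1.8 and 1.02 CPM, lost its call in 6 of the 8 such fits and under DESeq2.

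In phosphoinositide and calcium signalling, 3 of 30 genes were higher and 1 lower, where 2.82% and 1.94% of all genes tested were. PLCH1, a phospholipase C, rose from 24.7, 23.6, 25.2 and 24.2 CPM to 69, 63.6, 62.9 and 62.9 CPM (log2 1.40 ± 0.055, SE, edgeR FDR 2.09e-22). CAMK2N1, an inhibitor of calmodulin-dependent kinase II, rose from 37.2, 38.2, 32.1 and 32.7 CPM to 94.4, 99.6, 96.0 and 92.0 CPM (log2 1.45 ± 0.06, SE, edgeR FDR 1.06e-21), while CAMK2D, a subunit of that kinase, fell from a mean of 6.89 to 4.03 CPM (log2 -0.77). DGKH, a diacylglycerol kinase, rose from 38.2 to 65.2 CPM (log2 0.77). Of 30 immediate-early and MAPK feedback genes 3 were higher, NR4A2, PHLDA1 and IER5, and 0 lower, the last 2 of them at 10.3 and 11.5 CPM with SNX631 against 5.58 and 7.13 CPM. In mucin-type and sialyl glycosylation GCNT1 was higher, and ST3GAL5, the ganglioside GM3 synthase, and GCNT2 were lower, of 30. GCNT2 dropped inside the fold limit without vehicle replicate 2 (log2 -0.58). Of 37 TGF-beta and BMP genes, BMP6 was higher and INHBB, an activin subunit, lower, from 6.19 to 3.35 CPM.

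Genes of growth and protein synthesis moved together by small amounts. Of 64 genes of ribosome biogenesis and RNA polymerase I, 48 were higher and 0 lower at an edgeR FDR under 0.01. Over all genes tested, 14.4% were higher and 12.5% lower at that limit. IMP4 alone passed the fold limit, and the median of the list was 0.21. IMP4, a component of the small-subunit processome, went from 75.0, 74.7, 76.5 and 75.8 CPM to 119, 119.7, 111 and 131 CPM (log2 0.67 ± 0.043, SE, edgeR FDR 1.29e-15). DKC1, the pseudouridine synthase, and DDX18, a helicase, came next at 0.57 and 0.55. MYC, the growth-promoting transcription factor, measured 267, 254, 262 and 262 CPM and 351, 372, 365 and 382 CPM. Its groups were separate, and the log2 change of 0.49 ± 0.026 (SE, edgeR FDR 6.44e-18) lay under the fold limit. ATF4 targets and amino acid genes had 14 higher and 1 lower of 34 at the FDR limit alone and 0 past the fold limit, with a median of 0.14. DESeq2 called 0 of them, and the unadjusted p was under 0.05 for 20 higher and 1 lower (23% and 21.6% of all genes tested).

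Androgen-induced genes lay slightly lower with SNX631 without androgen, and few passed the fold limit. Of 60 tested, 0 were higher and 3 lower, with a median of -0.06, although 52 of the 60 were raised by R1881 at 24 h (9.83% of the genes tested there were). At an edgeR FDR under 0.01 alone 17 were lower and 6 higher, where 12.5% and 14.4% of all genes tested were. The summed level of the 53 members with a vehicle mean of at least 1 CPM was 5117 to 5145 CPM with vehicle and 4705 to 4800 CPM with SNX631, so these sums did not overlap. INPP4B, a phosphoinositide phosphatase, fell from 2.09, 2.52, 2.49 and 2.97 CPM to 1.14, 1.23, 1.04 and 0.852 CPM (log2 -1.23 ± 0.24, SE, edgeR FDR 4.9e-05). ACP3, prostatic acid phosphatase, fell from 35.6, 32.8, 31.6 and 30.4 CPM to 21.6, 15.5, 18.3 and 19.8 CPM (log2 -0.80 ± 0.074, SE, edgeR FDR 2.55e-11), and R1881 lowered it at 24 h. The groups of both were separate. HPGD, the prostaglandin dehydrogenase, was at most 3 counts in every SNX631 library and at least 2.38-fold lower. The lineage factors FOXA1 and HOXB13 were not called, with log2 changes of -0.24 and -0.12.

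The core subunits of Mediator (26 genes), the nuclear subunits of the respiratory chain (58), the MYC, MAX and MXD network (15), Notch signalling (23) and regulators of mesenchymal transition (10) had 0 calls each in edgeR and in DESeq2. Their medians lay between -0.04 and 0.06. At an unadjusted edgeR p under 0.05 they gave 3 higher and 4 lower, 10 and 4, 7 and 4, 9 and 6, and 2 and 1, against 23% higher and 21.6% lower over all genes tested. COX7C, a cytochrome oxidase subunit, measured 309.6, 309, 315 and 314 CPM with vehicle and 320.1, 326, 315 and 307 CPM with SNX631, and VIM, which encodes vimentin, 77.4, 76.2, 74.7 and 75.5 CPM and 81.4, 88.9, 84.0 and 93.4 CPM. The first overlapped and the second did not. Sterol genes had 1 call of 32, NPC1, which moves cholesterol out of lysosomes, from 70.8, 68.3, 73.2 and 73.6 CPM to 122, 118, 118 and 114 CPM (log2 0.72). Of 26 p53 targets TP53I3 was called lower and 0 higher, with a median of 0.14. At an edgeR FDR under 0.01 alone 11 of them were higher and 3 lower, where 14.4% and 12.5% of all genes tested were. Single calls also came from fatty acid genes (PPARG, lower, at -0.53 without SNX631 replicate 4), Wnt genes (WNT4, lower) and junction genes (CLDN8, lower). WNT4 lost its call without vehicle replicate 2 or SNX631 replicate 1 or 3, and CLDN8 in 5 of the 8 such fits, and both under DESeq2. Of 15 NF-kB genes NFKBIZ was higher and BIRC3 lower. Of 6 neuroendocrine markers tested, SYT4, a synaptotagmin, was higher, from a mean of 5.84 to 11.9 CPM, and the basal list had 0 calls of 2.

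**Figure D3:**
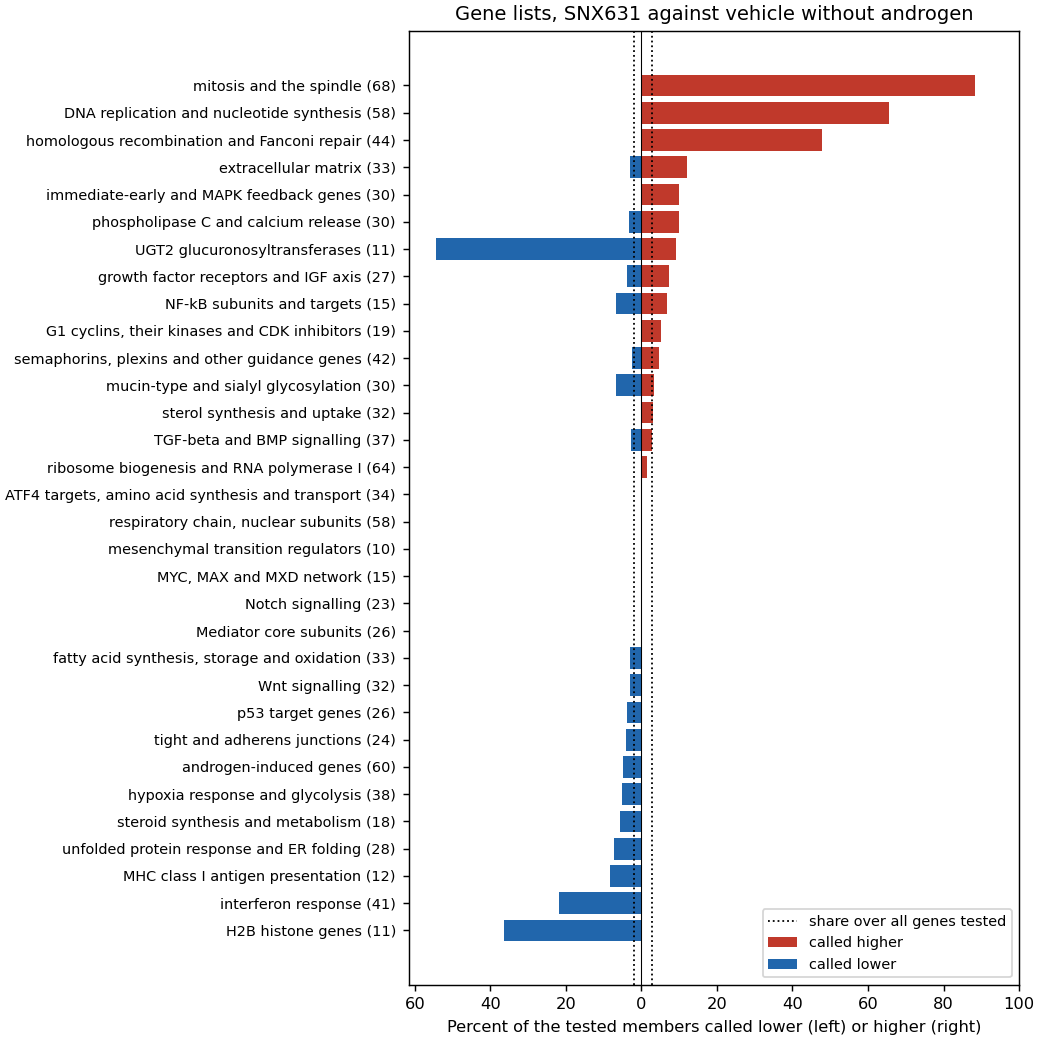
Percent of the tested members of each gene list called higher (right) or lower (left) with SNX631 without R1881, 32 lists, with dotted lines at the share over all genes tested (2.82% higher, 1.94% lower). The mitotic and replication lists reach 88.2% and 65.5% higher, and the UGT2 list has the highest share on the lower side, 6 of 11.

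SNX631 was also given together with R1881 in the same experiment, against R1881 alone, so that its effect can be read with and without androgen in libraries that are not shared. With R1881 it changed 663 of 16074 genes (4.12%), 303 higher (1.89%) and 360 lower (2.24%). Of the 766 genes called without R1881, 93.6% had the same sign with it, and 146 of the 454 higher and 104 of the 312 lower genes were called in the same direction. No gene was called in opposite directions. Pearson's r of the effects was 0.841 across the 766 genes, which are not independent replicates. The effects were smaller with R1881, with medians of 0.53 over the higher genes and -0.60 over the lower ones. The genes were chosen for their effect without R1881, which by itself leans towards a smaller value in the other contrast.

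The difference between the effects, tested as an interaction, was called for 192 genes (1.19%), towards a higher value with R1881 in 60 (0.373%) and a lower one in 132 (0.821%), and 91 of them were among the 766. In 69 of the higher and 18 of the lower genes the interaction ran against the effect without R1881, and in 1 and 3 it ran with it. The first class holds smaller effects and also effects of reversed sign, as in EBF2 (log2 1.26 without R1881 and -0.46 with it). The 766 were chosen for their effect without R1881, which the interaction subtracts, so these counts lean towards smaller effects by that choice. Genes of the mitosis, replication and recombination lists took 22 of the 91 and 119 of the 766. MAP1B went from 603 to 697 CPM with R1881, against 581 to 1243 CPM without it (interaction log2 -0.89, edgeR FDR 3.04e-13). BMP6 went from 3.74 to 7.24 CPM with R1881 (interaction -1.38, edgeR FDR 3.41e-07). PLCH1 was the 1 higher gene with a larger effect under R1881, from 12.6 to 58.3 CPM (interaction 0.79, edgeR FDR 1.76e-08). TUBA3D and PHLDB2 rose with SNX631 alone, to means of 2.07 and 6.48 CPM, but were far higher with R1881, 115 and 27.7 CPM, and SNX631 gave 117 and 24.3 CPM there. ARHGAP28, a GTPase-activating protein, fell from 18.3 to 10.5 CPM without R1881 and went from 26.0 to 38.1 CPM with it (interaction 1.34, edgeR FDR 3.39e-13).

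**Figure D4:**
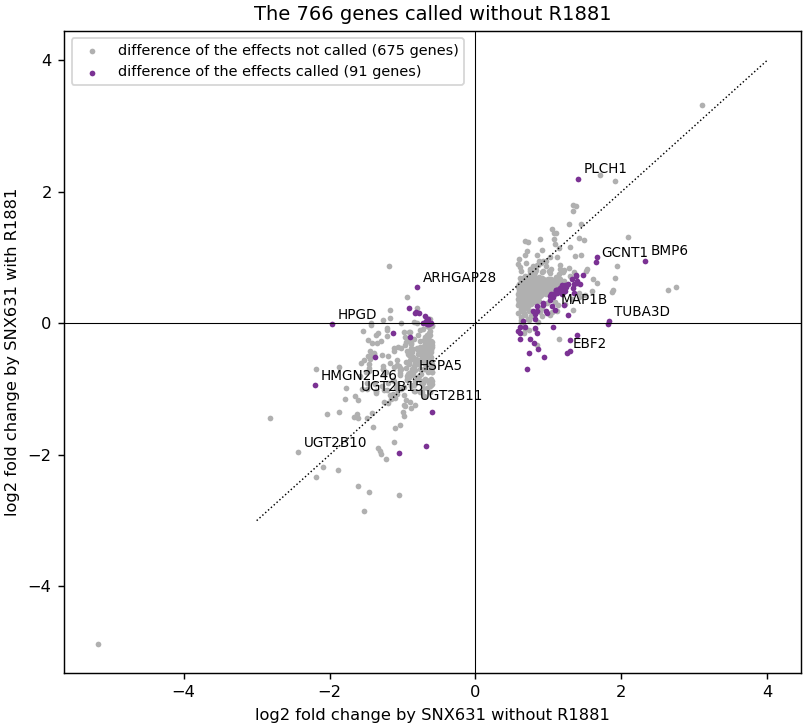
Log2 fold change of SNX631 with R1881 (vertical axis) against that without R1881 (horizontal axis) for the 766 genes called without R1881, at 72 h; purple marks the 91 genes with a called interaction and grey the other 675. Most points lie in the 2 quadrants of equal sign and closer to 0 on the vertical axis.

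The mitotic list kept its direction under R1881 with a smaller size. All 68 genes had a median effect of 0.54 with R1881, against 0.96 without it, 17 were called higher and 10 had a called interaction towards a smaller effect. Replication genes had a median of 0.47 with 6 called and 9 such interactions, and recombination genes 0.49 with 16 called and 3. CDK1 went from 267 to 541 CPM with R1881 (log2 1.02), against 100.4 to 258 CPM without it. Genes of the UGT2 family had a median effect of -1.24 with R1881, against -0.76 without it, with 7 lower and 1 higher. UGT2B10, already at 26.7 CPM with R1881, fell to 6.86 CPM, and UGT2B15 fell from 236 to 109 CPM. On the log2 scale both falls were smaller than without R1881, -1.96 against -2.43 for UGT2B10 (interaction 0.47, edgeR FDR 0.000547) and -1.11 against -1.64 for UGT2B15 (interaction 0.53, edgeR FDR 6.89e-12), though under the fold limit of an interaction call. The ER folding list stayed below its own control as well, with a median of -0.30, 1 gene lower and 0 higher. HSPA5 went from 1071 to 621 CPM. KLK3 and KLK2 gave no call without R1881 and fell from 138 to 46.2 CPM and from 341 to 90.4 CPM with it, with interactions of -1.53 and -1.78 (edgeR FDR 6.2e-05 and 1.53e-06).

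R1881 and SNX631 at 72 h were compared with the same vehicle libraries, so their values are set side by side and not correlated. The level of a list was the median of log2 CPM relative to the vehicle mean, over members with a vehicle mean of at least 1 CPM. Mitotic genes lay at 0.883 to 0.986 in the SNX631 libraries, 1.36 to 1.51 with R1881 and 1.9 to 2.05 with both. Replication genes lay at 0.648 to 0.748, 1.02 to 1.07 and 1.49 to 1.58 in that order. The UGT2 genes above that limit, 9 of the 11 tested, lay at -0.927 to -0.83, -1.22 to -0.902 and -2.2 to -1.78. The limit rests on the vehicle level, so it favours members that are high there, and UGT2A3 was below it. In these lists each agent stood on the same side of vehicle, and the libraries with both lay beyond those with either. The ER folding list did not follow, at -0.285 to -0.217 with SNX631, 0.315 to 0.388 with R1881 and 0.12 to 0.153 with both. Interferon genes were low in the SNX631 libraries, -0.357 to -0.207, near vehicle with R1881, -0.102 to -0.00376, and low again with both, -0.442 to -0.252.

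**Figure D5:**
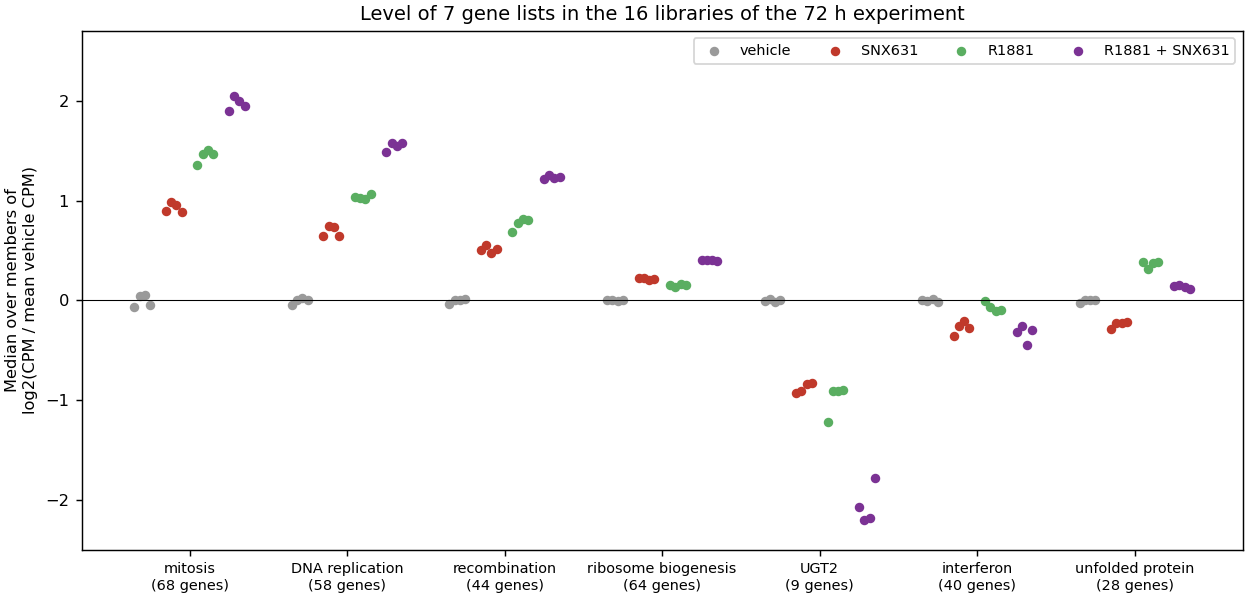
Median over the members of 7 gene lists of log2(CPM divided by the mean vehicle CPM), for each of the 16 libraries of the 72 h experiment, 4 points per treatment. Only members with a vehicle mean of at least 1 CPM were used. Mitotic libraries climb from about 0 with vehicle to between 1.9 and 2.05 with both agents, UGT2 libraries descend to between -2.2 and -1.78, and the ER folding list is below 0 with SNX631 and above 0 with R1881.

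The 24 h experiment gives the response to R1881 in libraries that the 72 h comparison did not use, at 0.1 nM and without SNX631. There R1881 raised 9.83% and lowered 9.07% of the 15681 genes tested in both experiments. Of the 445 genes higher with SNX631 and tested at 24 h, R1881 raised 314 (70.6%) and lowered 47 (10.6%), and of the 292 lower genes it raised 24 (8.22%) and lowered 109 (37.3%). The cell division lists had a large part in these counts. Of the 119 higher genes in the mitosis, replication or recombination lists R1881 raised 118 (99.2%), and of the other 326 it raised 196 (60.1%) and lowered 46 (14.1%). Higher genes outside those lists were called higher with R1881 present in 107 of 335 cases, and those inside in 39 of 119. BMP6, FUT9, NR4A2 and PLA2G2A were the 4 largest increases among genes that R1881 lowered at 24 h, with log2 changes for R1881 of -1.41, -3.19, -2.36 and -2.56. CCDC80 and CAMK2N1, which R1881 lowered at 24 h with log2 changes of -2.84 and -2.33, rose with SNX631 in its presence too, from 3.15 to 10.9 CPM and from 3.21 to 9.27 CPM. TMCC3 and HPGD fell with SNX631 and were raised by R1881 at 24 h, with log2 changes of 2.53 and 3.86.

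Senexin B, another CDK8/19 inhibitor, was used in the 24 h experiment, where inhibitor, dose, time and experiment all differ at once from SNX631 at 72 h, so the values below stand side by side. It changed 589 of the 15681 genes tested in both (3.76%), 314 higher (2%) and 275 lower (1.75%). The 293 genes called in the same direction for both inhibitors were 38.3% of the SNX631 calls and 49.7% of the Senexin B calls, and 95.4% of the 737 SNX631 calls tested at 24 h had the same sign. Log2 changes with Senexin B were -2.81 for UGT2B10 and -1.69 for UGT2B15, beside -2.43 and -1.64 with SNX631. With Senexin B and SNX631 in that order they were 2.10 and 2.33 for BMP6, 1.86 and 1.65 for GCNT1, and 1.10 and 1.10 for MAP1B. The mitotic list had 11 of 68 higher and a median of 0.38 with Senexin B, beside 60 and 0.96, and the replication list 12 of 58 higher and a median of 0.28, beside 38 and 0.72. HSPA5 and HSP90B1 had log2 changes of -0.42 and -0.45 and were not called with Senexin B. Of the UGT2 genes 6 were lower and 0 higher, and UGT2B7 was not called, at 0.45.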

How the data were processed

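RNA-seq libraries were made from total RNA with a directional kit, and the authors deposited 1 table of estimated counts (expected counts) per gene for all 28 libraries. The submitters' processing notes name FastQC, cutadapt 2.8, STAR 2.7.2b, featureCounts of Subread 2.0.3 and the builds GRCh38.p13 and GRCm39. The annotation release and the use of strand in counting were not given in the sources used here. Of the values above 0, 16.9% have a fractional part, so counts were rounded. The table holds 61817 rows, of which 61815 are human genes; the other rows hold no counts.

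The 16 libraries of the 72 h experiment were fitted together with edgeR 4.0.16 in R 4.3.3 (TMM scaling, low counts removed by filterByExpr at 10 per library and 15 in all, quasi-likelihood test, Benjamini-Hochberg adjustment, 12 residual degrees of freedom). Calls required an FDR below 0.01 together with more than 1.5-fold. Standard errors are Wald errors of the same fit. The 24 h libraries were fitted apart in the same way. CPM use effective library sizes, and genes under 1 CPM rest on few counts per library. Floors cover counting error only. Gene positions are from GENCODE 29 by Ensembl identifier, and promoters from the RefSeq table of GRCh38.p14.

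The libraries, gene lists and tests were chosen with earlier results of these data known. Named genes were the 12 highest and 12 lowest called changes with 1 CPM or more and a symbol, the 8 most abundant calls, up to 3 called members per direction of each list or the 2 most abundant of a list with no call, the kinase module, KLK3, KLK2, MYC and lineage factors, the 5 extreme interactions each way among genes called without R1881, and the 4 largest changes in each class by the 24 h response to R1881; other genes given with values were chosen after their values were seen. Some genes that the rule names are not reported here. Alternatives were other scalings, DESeq2 1.42.0, other filters, libraries and thresholds, a replicate block and each replicate left out. The scripts were tested on simulated counts.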

Additional observations from a re-analysis of the deposited data

Results flagged for a closer look

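Dixon's test over the 4 libraries of a group singled out 9 of 238 groups of values of the named genes (3.78%), where chance gives about 1 in 20 groups. The libraries were SNX631 replicate 2 for ITGA6 (36.2 CPM, the others 40.6 to 40.8), vehicle replicate 4 for ITGB4 (10.3, the others 8.5 to 8.79) and MED13 (187, the others 173 to 174), and SNX631 replicate 4 for MCM10 (23.2, the others 27.6 to 28.4) and PPARG (3.15, the others 4.2 to 4.3). They also included SNX631 replicate 1 for PLCH1 (69.0, the others 62.9 to 63.6), vehicle replicate 3 for RBL1 (16.5, the others 14.3 to 14.6) and UGT2B27P (6.52, the others 5.22 to 5.34), and vehicle replicate 2 for TMCC3 (0.916, the others 1.37 to 1.4). Left out, these libraries changed the call of PPARG, which was lost without SNX631 replicate 4.

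The effect of SNX631 differed with and without R1881 in a test of the difference itself (edgeR interaction) for 10 genes taken from the extremes. As the log2 effect with R1881 minus that without it, the values were -1.83 for PREX2, -1.80 for TUBA3D, -1.71 for EBF2, -1.58 for PHLDB2 and -1.54 for ADRB1, all of which rose with SNX631 alone. They were 1.96 for HPGD, 1.34 for ARHGAP28, 1.26 for HMGN2P46, 1.14 for CNIH3 and 0.987 for LINC01341, all of which fell with SNX631 alone. HPGD was at or under 3 counts in every SNX631 library without R1881 and at 11.4 CPM with it, so its difference depends on the prior count. These genes were taken as extremes, and their sizes lean outwards for that reason.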

How the results depend on the processing

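The 766 calls kept their sign in every alternative that tested them (732 were tested with the 1 CPM filter and 745 with the 8 libraries alone). DESeq2 size factors in edgeR gave 766, library totals 775 (54.3% higher, against 59.3%), DESeq2 632 (66% higher) with no adjusted p for 63 of the 766, no filter 860, a filter at 1 CPM 736, the 8 libraries alone 758 and all 28 libraries 789. Leaving out each replicate in turn gave 705 to 775 calls, of which 657 to 697 were among the 766. Replicate numbers did not pair the libraries (r of same-numbered deviations -0.0165, 0.0679, 0.0717 and -0.0474), and the fit with the number as a block called 763, with 753 of the 766. The threshold mattered most. An FDR under 0.05 with no fold limit called 5864 genes, 3061 higher (19%) and 2803 lower (17.4%). It also called 2034 interactions, 1213 of them in genes also called for SNX631. It called 58 replication and 36 recombination genes higher, and 18 interferon, 19 ER folding and 7 H2B genes lower. Testing against a fold change of 1.5 itself (glmTreat, FDR under 0.05) left 273 genes, 218 higher and 55 lower, and 24 interactions, 10 of them in called genes. It left 22 replication and 13 recombination genes, 1 H2B gene and 0 interferon genes, where edgeR had 23 interferon genes lower at an unadjusted p under 0.05 and DESeq2 called 8. Of the 91 named genes that were called, 49 kept the call in every alternative that gave them a value, 43 of them in all 18, and 42 lost it under at least 1, all of them in the test against 1.5. AGR2 and PDGFRB also lost it with the replicate block (edgeR FDR 0.0135 and 0.0103), and RBL1 and PLXNA2 with library totals. With the 8 libraries alone there is no interaction to test. The values come from 1 cell line, 1 dose and 1 time, and from RNA alone. Genes under 1 CPM rest on few counts, and paralogs and overlapping genes may share reads.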
